A study of Homo sapiens with 8 samples.

Results

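Epithelial-mesenchymal transition (EMT) genes were followed in cultures of Ea.hy926, a hybrid of human umbilical vein endothelium and the A549 lung carcinoma line, so that each cell has an endothelial and an epithelial parent. The 10 genes were taken by name: the cadherins CDH1 and CDH2, the filament gene VIM, the surface gene EPCAM, and the transcription factor genes SNAI1, SNAI2, ZEB1, ZEB2, TWIST1 and TWIST2. All 10 were found among the 38010 Ensembl gene IDs of the table of estimated counts. One group held 4 cultures of parental Ea.hy926 with working respiration, and the other held 4 cultures of its Rho0 derivative, labelled deficient in oxidative phosphorylation. Both were collected at confluence with no drug or other treatment named. The sources used here do not say how the Rho0 line was made. P-values set the difference between the lines only against the spread between cultures. As 1 parental and 1 Rho0 line were compared, loss of respiration cannot be told apart from any other difference between these lines.

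In EMT, cells give up epithelial contacts and take on a motile form. SNAI, ZEB and TWIST proteins are transcription factors that bind short E-box motifs (CANNTG), and SNAI1 and ZEB1 are known as repressors of CDH1, which encodes E-cadherin. Replacement of E-cadherin by N-cadherin, the product of CDH2, is the classical cadherin switch, and vimentin, the filament protein of mesenchymal and endothelial cells, is its usual companion marker. Endothelial cells normally express vimentin and N-cadherin beside their own VE-cadherin, encoded by CDH5.

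The E-box is shown in the start regions of the genes that code for factors or for N-cadherin, so that the motif can be seen beside the measured levels. RefSeq windows on GRCh38.p14, running from 250 bases before to 50 bases after a transcription start, were at hand for CDH2, VIM, ZEB1, ZEB2 and TWIST2, 12 windows in all. Each window printed here reads 5′ to 3′ on the strand of its gene, with every CANNTG in capitals. The windows are ZEB1 at chr10:31318167-31318466 (plus strand, the start nearest to that of the annotated gene), a further ZEB1 start at chr10:31318966-31319265 (plus strand), ZEB2 at chr2:144520070-144520369 (minus strand) and CDH2 at chr18:28177081-28177380 (minus strand).
ZEB1 nearest start: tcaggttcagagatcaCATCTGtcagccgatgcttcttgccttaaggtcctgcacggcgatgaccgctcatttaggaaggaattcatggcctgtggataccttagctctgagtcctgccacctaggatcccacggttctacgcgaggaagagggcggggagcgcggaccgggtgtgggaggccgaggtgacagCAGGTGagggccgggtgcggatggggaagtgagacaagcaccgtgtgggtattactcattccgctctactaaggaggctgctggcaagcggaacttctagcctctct
ZEB1 further start: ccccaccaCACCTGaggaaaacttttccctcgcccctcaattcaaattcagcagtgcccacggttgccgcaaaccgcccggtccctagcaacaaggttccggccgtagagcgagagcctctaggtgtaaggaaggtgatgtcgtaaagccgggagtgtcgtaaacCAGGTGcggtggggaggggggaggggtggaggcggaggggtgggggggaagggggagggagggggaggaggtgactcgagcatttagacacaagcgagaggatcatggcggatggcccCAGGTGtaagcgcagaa
ZEB2: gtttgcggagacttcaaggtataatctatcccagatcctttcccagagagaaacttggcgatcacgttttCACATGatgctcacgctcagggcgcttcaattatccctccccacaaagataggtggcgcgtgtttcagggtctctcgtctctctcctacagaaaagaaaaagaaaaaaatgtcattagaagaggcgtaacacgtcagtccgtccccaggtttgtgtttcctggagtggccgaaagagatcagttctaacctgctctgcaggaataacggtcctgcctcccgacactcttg
CDH2: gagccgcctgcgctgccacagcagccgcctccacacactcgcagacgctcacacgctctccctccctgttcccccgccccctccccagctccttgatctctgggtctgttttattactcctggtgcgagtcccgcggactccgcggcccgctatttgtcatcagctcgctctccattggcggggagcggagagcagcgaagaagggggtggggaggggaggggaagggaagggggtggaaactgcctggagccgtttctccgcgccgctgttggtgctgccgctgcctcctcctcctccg
The 2 ZEB1 windows printed hold 2 and 3 E-boxes, the ZEB2 window 1 and the printed CDH2 window 0. ZEB1 had 7 windows, and some of those not printed held no CANNTG. A second CDH2 window, at chr18:28036592-28036891, held 1. The letters CAGGTG, the form known for SNAI and ZEB binding, counted on either strand, occurred 1 time in the nearest ZEB1 window and 3 times in the further one, and these were the only 2 of the 12 windows with it (16.7%, against 20.6% of all 35116 RefSeq windows of this length). CANNTG, of which CAGGTG is a case, was in 6 of the 12 windows (50%) and in 68.7% of all windows. The windows of VIM and TWIST2 held neither. These matches describe letters only, since no binding was measured.

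Libraries held 11721708 to 37203507 estimated counts. Levels are given in CPM, counts scaled to a common library size after TMM (trimmed mean of M-values) normalization, with factors of 0.801 to 0.921 (parental) and 1.11 to 1.19 (Rho0). Of 15184 genes tested with edgeR's quasi-likelihood test, 4399 were higher and 3858 lower in Rho0 at a Benjamini-Hochberg adjusted p of 0.05 (53.3% of calls higher). With library size alone 84.8% of calls were higher, and the median over all genes (log2 fold change, Rho0 minus parental) was 0.44 in place of 0.05. Mitochondrially encoded genes took 16.05% to 21.4% of the parental and 0.00296% to 0.149% of the Rho0 counts, as a check of the labels. Rho0 replicate 2, the smallest library, held the 0.149%, and the other Rho0 libraries held at most 0.00757%. Of 16 endothelial markers 15 were tested (all but CLDN5), 5 being higher (33.3%) and 4 lower (26.7%) in Rho0. These shares were near the 29.0% and 25.4% of all genes tested. With library size alone 10 were higher and 3 lower, beside 8572 and 1540 of the 15184 genes. KDR, MMRN1 and PECAM1 were 9.43-fold, 4.30-fold and 1.95-fold higher and EMCN fell by 4.24 on the log2 scale, while the summed level was 7738 to 8751 CPM (parental) and 7899 to 9084 CPM (Rho0). Of 12 epithelial markers 8 were tested, 2 being higher and 4 lower. EPCAM and CDH1, members of the 10 EMT genes, belong to this list, and the 2 higher were EPCAM and MUC1. Summed levels were 2621 to 2894 CPM (parental) and 1310 to 2097 CPM (Rho0), carried by KRT7, KRT8 and KRT18. KRT19, ELF3, ESRP1 and GRHL2 stayed below the filter. Of 12 fibroblast markers 5 were tested, 2 being higher and 2 lower. Their sum of 23.4 to 27.8 and 25.9 to 39.8 CPM was carried by a different gene in each line, THY1 going from 18.9 to 0.0661 CPM and FAP from 4.57 to 29.2 CPM. Of 10 blood cell markers 3 were tested and all 3 were higher (CD68, LYZ and PTPRC). Leaving out any 1 library gave 1 to 3 higher. Sums were 96.6 to 119 CPM (parental) and 122 to 141 CPM (Rho0), nearly all of it CD68, with CD3E, HBB and CD2 at 0 counts. The part of these markers in the levels of the EMT genes was not tested. In bulk RNA, fewer cells with a transcript and less transcript per cell cannot be told apart.

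Of the 10 genes, 8 passed the count filter, 6 of these were higher in Rho0 and 0 were lower. Over all genes tested, 54.4% were called in either direction, 29.0% higher and 25.4% lower. The 6 were CDH2, VIM, EPCAM, SNAI1, ZEB1 and ZEB2, while CDH1 and TWIST2 did not pass the test. In these 6 every Rho0 library was above every parental library, as in 26.6% of all genes tested. SNAI2 and TWIST1 were below the filter. EPCAM passed the filter through its 4 Rho0 libraries, only 1 parental library reaching the minimum of 0.411 CPM, so a difference was built into its selection and the count of 6 supports nothing by itself.

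**Figure D1:**
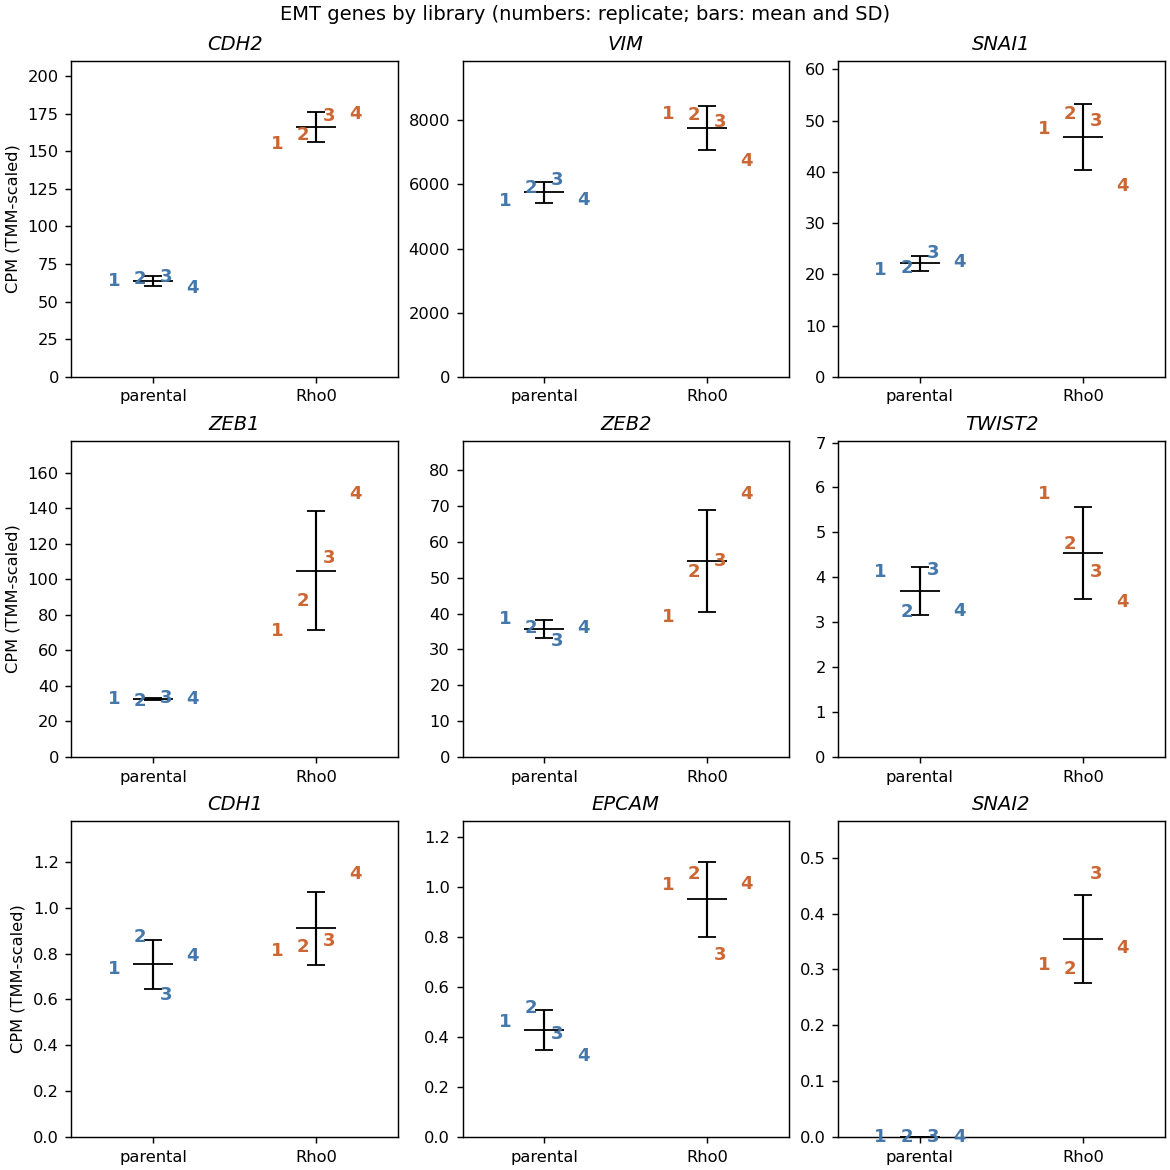
Level of 9 of the genes in each library, in TMM-scaled CPM on linear axes from 0, each digit marking the replicate of that number; black marks give the mean and SD of 4 libraries. The lines do not overlap for CDH2, VIM, SNAI1, ZEB1, ZEB2, EPCAM and SNAI2, and they overlap for TWIST2 and CDH1; TWIST1 had 0 counts in all 8 libraries and is not drawn.

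CDH2, which encodes N-cadherin (ENSG00000170558, chromosome 18, 27950966 to 28177446, minus strand, GRCh38), was 2.61-fold higher in Rho0. Its levels in parental replicates 1 to 4 were 63.7, 65.2, 66.6 and 59.2 CPM, and in Rho0 replicates 1 to 4 they were 155, 161, 173 and 175 CPM. The lines were far apart and the spread within each was small, with SDs of 5.02% and 5.88% of the mean (log2 fold change 1.38, SE 0.07, edgeR adjusted p = 8.1e-08). This fold change lay between 1.30 and 1.78 in 17 alternative settings and was called in all 17.

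CDH1, which encodes E-cadherin (ENSG00000039068, chromosome 16, 68737225 to 68835548, plus strand), was near the limit of detection in both lines. Parental replicates 1 to 4 held 16, 22, 12 and 17 counts, or 0.734, 0.874, 0.618 and 0.790 CPM. Rho0 replicates 1 to 4 held 29, 11, 20 and 51 counts, or 0.813, 0.828, 0.857 and 1.15 CPM. The lines overlapped, and the highest library was Rho0 replicate 4. The log2 fold change was 0.29 with an SE of 0.22 (edgeR adjusted p = 0.284), and at these counts a difference of this size was not detectable. Without Rho0 replicate 4 it was 0.13 (adjusted p = 0.718), and with library size alone it was 0.68 and called (adjusted p = 0.026). No setting called a fall of CDH1, the usual partner of a CDH2 rise: its log2 fold change was 0.13 to 0.68 over 16 alternatives.

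On a per-length scale, CPM per kilobase of the longest annotated protein-coding transcript, CDH2 mRNA exceeded CDH1 mRNA in all 8 libraries. The ratio of CDH2 to CDH1 was 98.0, 84.2, 121.6 and 84.6 in parental replicates 1 to 4 and 215, 219.5, 228 and 172 in Rho0 replicates 1 to 4. Its log2 had a mean of 6.59 ± 0.25 (SD, n = 4) in the parental line and 7.70 ± 0.18 (SD, n = 4) in Rho0. The difference was 1.11, and 1.05 to 1.22 when any 1 library was left out, with no overlap between the lines. No test was made of this ratio, and its denominator rests on 11 to 51 CDH1 counts per library, so that counting error weighs on it.

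CDH2 also took a larger share of the cadherins as a group. Over CDH1, CDH2 and 20 other cadherin genes, the summed per-length level was 463 ± 25.2 CPM per kilobase in the parental line and 315 ± 8.24 in Rho0 (SD, n = 4 each). VE-cadherin (CDH5) made up 89.8 ± 0.0917% of this sum in the parental line and 79.6 ± 0.654% in Rho0. The share of CDH2 was 3.18 ± 0.0986% and 12.2 ± 0.941%, and that of CDH1 0.0335 ± 0.00588% and 0.0594 ± 0.0116%. Of the 20 other cadherins 9 were tested, 4 being higher and 4 lower (44.4% each, against 29.0% and 25.4% of all genes tested). CDH13, which encodes T-cadherin, a form anchored to the membrane by lipid, had 1.07 ± 0.230 CPM in the parental line and 29.3 ± 5.86 CPM in Rho0, a log2 fold change of 4.77 with an SE of 0.20 (edgeR adjusted p = 1.8e-08). CDH5 had 1716 ± 92.4 and 1033 ± 32.7 CPM, a log2 fold change of -0.73 with an SE of 0.09 (adjusted p = 5.1e-05), and CDH12 and CDH18 had log2 fold changes of -1.59 and -1.21. When parental replicate 1, parental replicate 4 or Rho0 replicate 3 was left out, 2 of these cadherins were called higher in place of 4.

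**Figure D2:**
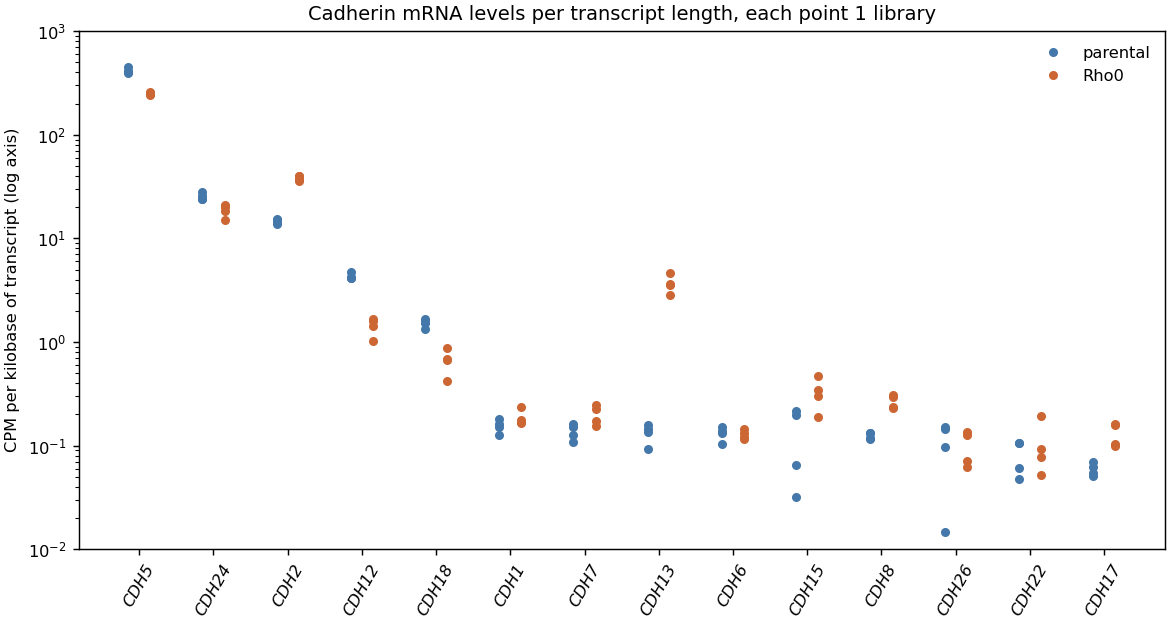
Per-length level of each cadherin with a mean of at least 0.1 CPM per kilobase in either line, on a log axis, each point 1 library and genes ordered by their parental level. CDH2 moved above CDH24 in Rho0, CDH13 moved from 0.133 to 3.64 CPM per kilobase, and CDH1 lay below 0.3 in every library.

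VIM, which encodes vimentin (ENSG00000026025, chromosome 10, 17228259 to 17237593, plus strand), was the most abundant of the 10 by far and rose 1.35-fold. Parental replicates 1 to 4 had 5467, 5874, 6150 and 5515 CPM, and Rho0 replicates 1 to 4 had 8204, 8161, 7945 and 6735 CPM. The lowest Rho0 library, replicate 4, was still above the highest parental one (log2 fold change 0.43, SE 0.13, edgeR adjusted p = 0.016). Without Rho0 replicate 3 the log2 fold change was 0.41 and no longer passed the test (adjusted p = 0.064). With library size alone the rise was 0.82, against a median of 0.44 for all genes.

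EPCAM (ENSG00000119888, chromosome 2, 47345158 to 47387601, plus strand) encodes an adhesion molecule of epithelia. It had few counts, 10, 13, 8 and 7 in parental replicates 1 to 4 and 36, 14, 17 and 45 in Rho0 replicates 1 to 4. These are 0.459, 0.516, 0.412 and 0.325 CPM against 1.01, 1.05, 0.728 and 1.01 CPM. The lines did not overlap, with replicate 3 lowest in Rho0 (log2 fold change 1.13, SE 0.24, edgeR adjusted p = 0.0022). Since it was tested only because of its Rho0 level, this p is not independent of the filter. With no filter the log2 fold change was 1.15 (SE 0.28, adjusted p = 0.0049).

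SNAI1 (ENSG00000124216, chromosome 20, 49982999 to 49988886, plus strand), which encodes the zinc finger repressor Snail, was 2.10-fold higher in Rho0. Parental replicates 1 to 4 had 20.9, 21.3, 24.1 and 22.4 CPM, and Rho0 replicates 1 to 4 had 48.4, 51.3, 49.9 and 37.21 CPM. Replicate 4 was the lowest of the Rho0 libraries, yet above all parental ones (log2 fold change 1.07, SE 0.11, edgeR adjusted p = 1.3e-05). SNAI2, which encodes the related factor Slug (ENSG00000019549, chromosome 8, 48917604 to 48921740, minus strand), had 0 counts in all 4 parental libraries and 11, 4, 11 and 15 counts in Rho0 replicates 1 to 4. Its Rho0 level was 0.355 ± 0.0794 CPM (SD, n = 4), at least 2.58-fold above the mean of 0.138 CPM that 3 counts in each parental library would give. It was below the filter, and in a fit with no filter it was called higher (edgeR adjusted p = 1.3e-04).

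ZEB1 (ENSG00000148516, chromosome 10, 31318495 to 31529814, plus strand), which encodes a repressor with zinc fingers at both ends and a homeodomain, had the largest fold change of the 8 genes tested. Parental replicates 1 to 4 were tight at 32.8, 31.5, 33.2 and 32.6 CPM. Rho0 replicates 1 to 4 had 71.0, 87.8, 112 and 148 CPM, a 2.09-fold range within the line. All were above the parental line, with a fold change of 3.23 (log2 fold change 1.69, SE 0.19, edgeR adjusted p = 3.1e-05). ZEB2 (ENSG00000169554, chromosome 2, 144364364 to 144524583, minus strand), its paralogue, had 38.6, 35.9, 32.4 and 35.9 CPM in parental replicates 1 to 4, with 39.2, 51.7, 54.6 and 73.4 CPM in Rho0 replicates 1 to 4. Rho0 replicate 1 lay just above the highest parental library, and replicate 4 far above (log2 fold change 0.62, SE 0.16, edgeR adjusted p = 0.0074).

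TWIST2 (ENSG00000233608, chromosome 2, 238848032 to 238910543, plus strand), which encodes a basic helix-loop-helix factor, had 4.13, 3.22, 4.17 and 3.25 CPM in parental replicates 1 to 4. Rho0 replicates 1 to 4 had 5.86, 4.74, 4.11 and 3.45 CPM. The lines overlapped, and replicate 1 was the highest and replicate 4 the lowest Rho0 library (log2 fold change 0.30, SE 0.18, edgeR adjusted p = 0.191). TWIST2 was called higher in 3 of 17 alternatives, at 0.69 with library size alone (adjusted p = 0.0045), 0.42 without Rho0 replicate 4 (adjusted p = 0.047) and 0.53 after the length and GC correction described further on (adjusted p = 0.0033). TWIST1 (ENSG00000122691) had 0 counts in each of the 8 libraries, which allows up to 0.155 CPM in a parental library and 0.226 CPM in a Rho0 library at 3 counts each, for counting error only.

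The spread among Rho0 libraries differed by gene. SDs were 32.0% of the mean for ZEB1 and 25.9% for ZEB2, with replicate 4 highest and replicate 1 lowest. For TWIST2 (22.6%) replicate 1 was highest and replicate 4 lowest, and replicate 4 was also lowest for VIM and SNAI1. The longest transcripts of ZEB1 and ZEB2 have 6267 and 9583 bases with 38.5% and 39.1% GC, those of SNAI1 and TWIST2 have 1686 and 1404 bases with 58.2% and 57.0% GC, and that of CDH2 lies between (4332 bases, 45% GC). A term fitted over all genes for transcript length and GC content came to 0.52 and 0.59 log2 units for ZEB1 and ZEB2 in Rho0 replicate 4, and to -0.14 and -0.16 in replicate 1. For SNAI1 and TWIST2 it was -0.33 and -0.35 in replicate 4. The term also differed between the lines. For ZEB1 it was -0.27 to -0.10 in the parental libraries and 0.07 to 0.52 in Rho0 replicates 2 to 4. For ZEB2 these ranges were -0.29 to -0.14 and 0.10 to 0.59. As the term was fitted to each library without regard to line, removing it also alters the difference between the lines. The SE and p after its removal do not allow for this.

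With this term removed, an alternative chosen after seeing the data, the Rho0 libraries drew together. ZEB1 ranged from 34.5 to 40.0 CPM among parental libraries and from 78.2 to 103 CPM among Rho0 libraries (log2 fold change 1.33, SE 0.09, edgeR adjusted p = 5.2e-08). ZEB2 had 39.5 to 42.5 and 43.9 to 48.7 CPM, and its log2 fold change went from 0.62 to 0.22 (SE 0.05, adjusted p = 0.0025), so that most of its difference depended on this choice. Without Rho0 replicate 4 and with no correction, ZEB2 was at 0.43 (adjusted p = 0.0052) and ZEB1 at 1.46 (adjusted p = 1.1e-06). CDH2, SNAI1, EPCAM and VIM were at 1.30, 1.27, 1.25 and 0.53 after the correction and CDH1 at 0.21, CDH1 alone of the 8 not being called.

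**Figure D3:**
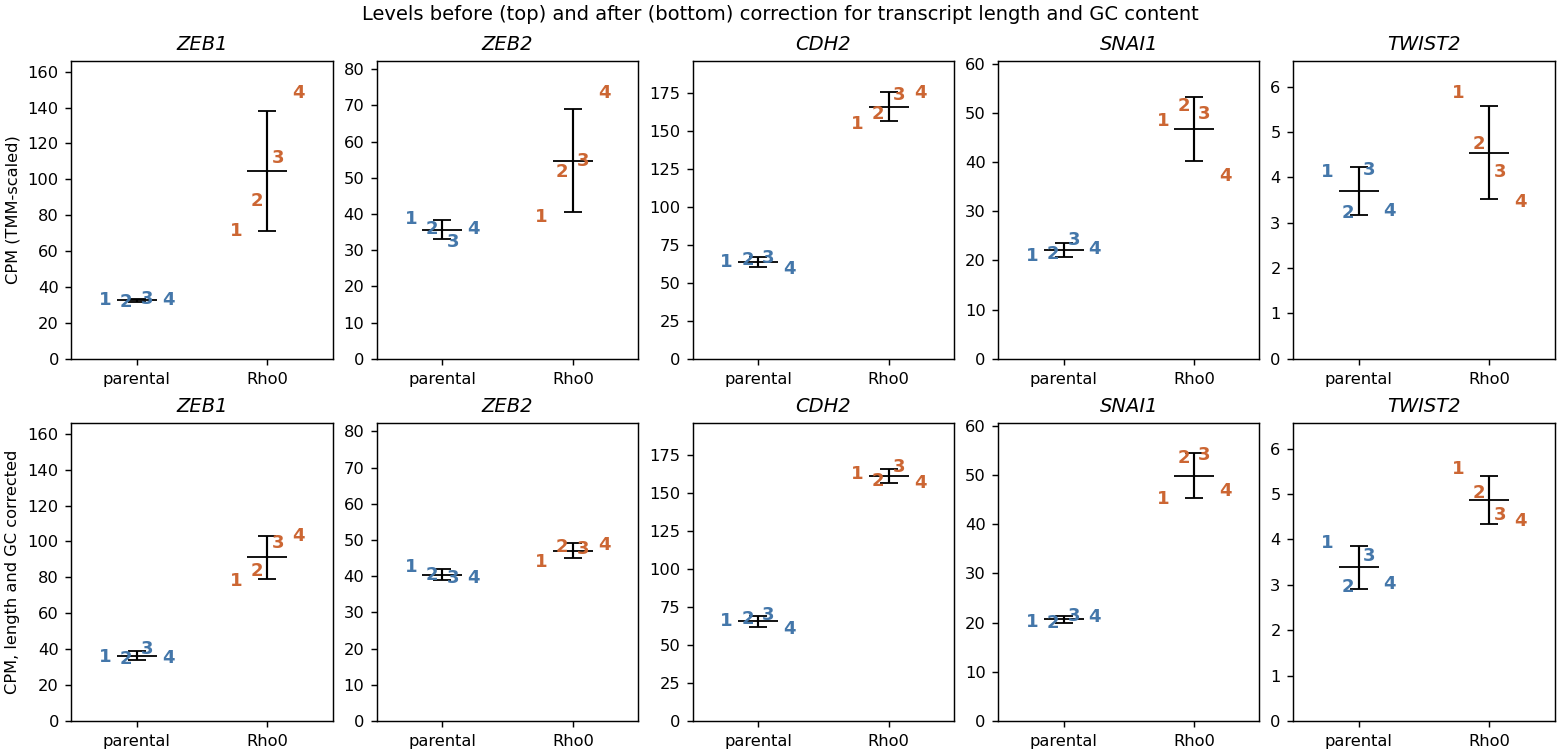
CPM of 5 genes by library before (top) and after (bottom) removal of the length and GC term, with digits for replicates and black marks for mean and SD (n = 4). ZEB1 and ZEB2 draw together in Rho0, ZEB2 from a range of 39.2 to 73.4 CPM to one of 43.9 to 48.7 CPM, and TWIST2 no longer overlaps between the lines.

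**Figure D4:**
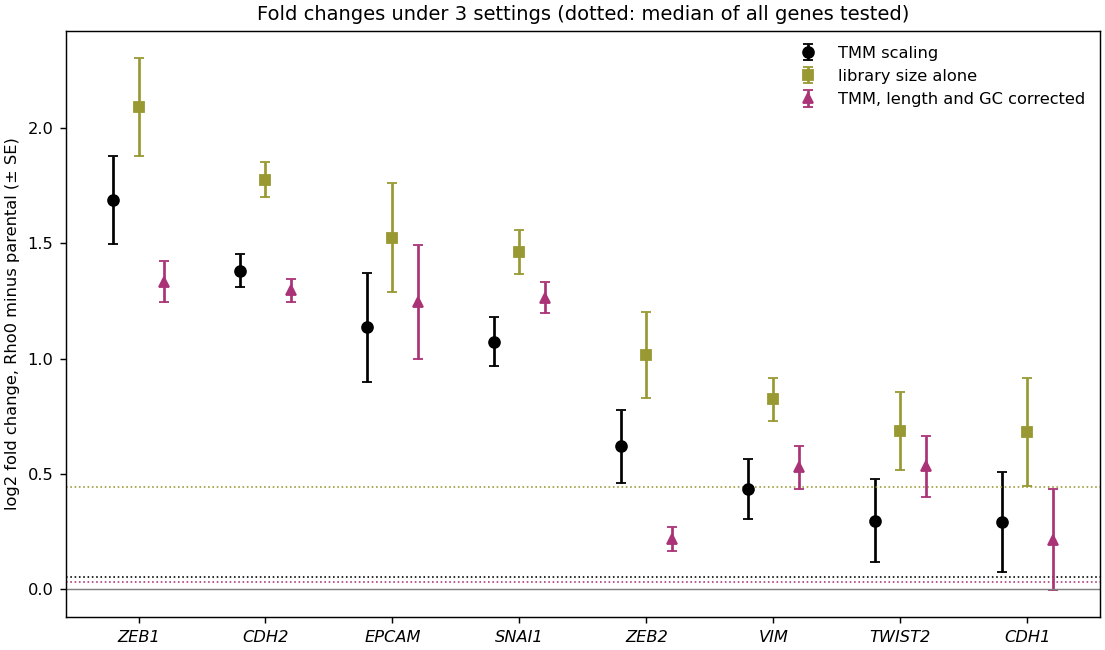
Log2 fold change (Rho0 minus parental) with SE for the 8 genes tested, with TMM scaling, with library size alone, and with TMM and the length and GC correction; dotted lines are the medians of all genes tested, at 0.05, 0.44 and 0.03. All 24 estimates are above 0, with ZEB1 highest and CDH1 lowest in each setting.

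Ordered by level per kilobase, the parental line had VIM (2694), CDH2 (14.7), SNAI1 (13.2), ZEB1 (5.19), ZEB2 (3.72), TWIST2 (2.63), EPCAM (0.248) and CDH1 (0.154 CPM per kilobase), with SNAI2 and TWIST1 at 0. The order was the same in Rho0, where VIM was at 3635, CDH2 at 38.3, SNAI1 at 27.7, ZEB1 at 16.7, ZEB2 at 5.71, TWIST2 at 3.23, EPCAM at 0.552, CDH1 at 0.187 and SNAI2 at 0.146 CPM per kilobase. Neighbours whose libraries overlapped were CDH2 with SNAI1 in the parental line, and SNAI1 with ZEB1, ZEB2 with TWIST2 and CDH1 with SNAI2 in Rho0. The estimates of CDH1, ZEB1 and ZEB2 were not whole in any of the 8 libraries, and that of VIM was whole in 1 library, so that these estimates hold reads shared with other sequences. Those of CDH2, EPCAM, SNAI1, SNAI2 and TWIST2 were whole throughout, within 1e-06. The antisense genes ZEB1-AS1, ZEB2-AS1 and VIM-AS1 overlap 3 of the genes and have no row of their own in the count table, and the sources used here do not say whether strand was used in counting.

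For each of the 6 genes with a mean of at least 1 CPM, the 2 protein-coding genes with the most similar profile over the 8 libraries were found by the root mean square difference of centred log2 CPM, over 10081 genes. CDH2 was closest to RSU1 (difference 0.0468) and SMIM14 (0.0487), and VIM to RETSAT (0.0282) and ELMO2 (0.0332). SNAI1 was closest to MYD88 (0.0797) and PDLIM7 (0.0862), and ZEB1 to ALCAM (0.114) and CALD1 (0.119). ZEB2 was closest to SBNO1 (0.0405) and BLZF1 (0.0459), and TWIST2 to CACNG7 (0.0907) and ATG9B (0.102). These distances describe the step between 2 lines and the spread of 8 libraries.

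Other genes of the EMT program did not move as 1 block. The list counts that follow are to be read beside all genes tested, of which 29.0% were higher and 25.4% lower. Among 16 tested of 24 other EMT transcription factors, 9 were higher and 2 lower, with a median log2 fold change of 0.47 against 0.05 for all genes. The chromatin protein gene HMGA2 went from 306 ± 8.19 to 627 ± 90.1 CPM and SOX4 rose 2.12-fold, while MSX1 and FOXM1, a factor of dividing cells, fell by 1.59 and 1.32 on the log2 scale. Of 28 tested mesenchymal effector genes, 18 were higher and 4 lower (median 0.86). FN1, which encodes fibronectin, rose 12.7-fold. COL6A1, a collagen chain, rose 8.22-fold, but THY1 fell from 18.9 ± 1.61 to 0.0661 ± 0.0667 CPM.

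The TGF-beta, WNT and Notch pathways are known inputs to EMT factors, and the list of their genes also held inhibitors. Of 27 tested, 17 were higher and 3 lower (median 0.47, or 0.85 with library size alone, when 25 were higher and 0 lower). TGFB2, a ligand, went from 0.0457 ± 0.0377 to 9.28 ± 1.66 CPM. Like EPCAM, it passed the filter through its Rho0 libraries, as THY1 did through its parental ones. The feedback inhibitors SMAD7 and SKIL rose 8.03-fold and 6.96-fold. ID1, which encodes an inhibitor of helix-loop-helix factors, rose 2.21-fold. After the length and GC correction 18 were higher and 7 lower.

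Of the epithelial effector genes tested, more were called lower (50%) than higher (16.7%), against 25.4% and 29.0% of all genes tested. Of 33 epithelial effector genes 18 were tested, 3 being higher and 9 lower, with a median of -0.41 (-0.02 with library size alone, when 6 were higher and 9 lower). F11R, a tight junction adhesion gene, fell by 2.38 on the log2 scale, and JUP, which encodes plakoglobin, fell from 574 ± 56.4 to 287 ± 53.2 CPM. Regulators of the epithelial state were mostly below the filter, 5 of 18 passing the filter, of which 2 were higher and 0 lower. GRHL2, ESRP1, OVOL1 and OVOL2, known repressors of EMT or of its splicing program, did not reach it.

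The partners of cadherins and of the EMT factors went both ways, as did all genes tested (29.0% higher and 25.4% lower). Of the cadherin partners tested 21.4% were higher and 42.9% lower, and of the corepressors and stability factors 25.8% and 38.7%. Of 14 tested catenins and other cadherin partners, 3 were higher and 6 lower (median -0.14, or 0.26 with library size alone, when 8 were higher and 2 lower). CTNNB1, which encodes beta-catenin, rose 1.33-fold, and ARVCF, a catenin of the p120 family, fell by 1.42 on the log2 scale. Of 31 corepressors and stability factors of SNAI and TWIST proteins, all tested, 8 were higher and 12 lower (median -0.13, or 0.26 with library size alone, when 16 were higher and 4 lower). The deacetylase gene HDAC1 fell by 1.29 on the log2 scale, and BMI1 rose 1.91-fold. Of 12 tested other intermediate filament and linker genes, 2 were higher and 6 lower (median -0.33, or 0.06 with library size alone, when 4 were higher and 4 lower). The genes of peripherin (PRPH) and nestin (NES), filament proteins as vimentin is, fell by 4.01 and 1.57 on the log2 scale.

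**Figure D5:**
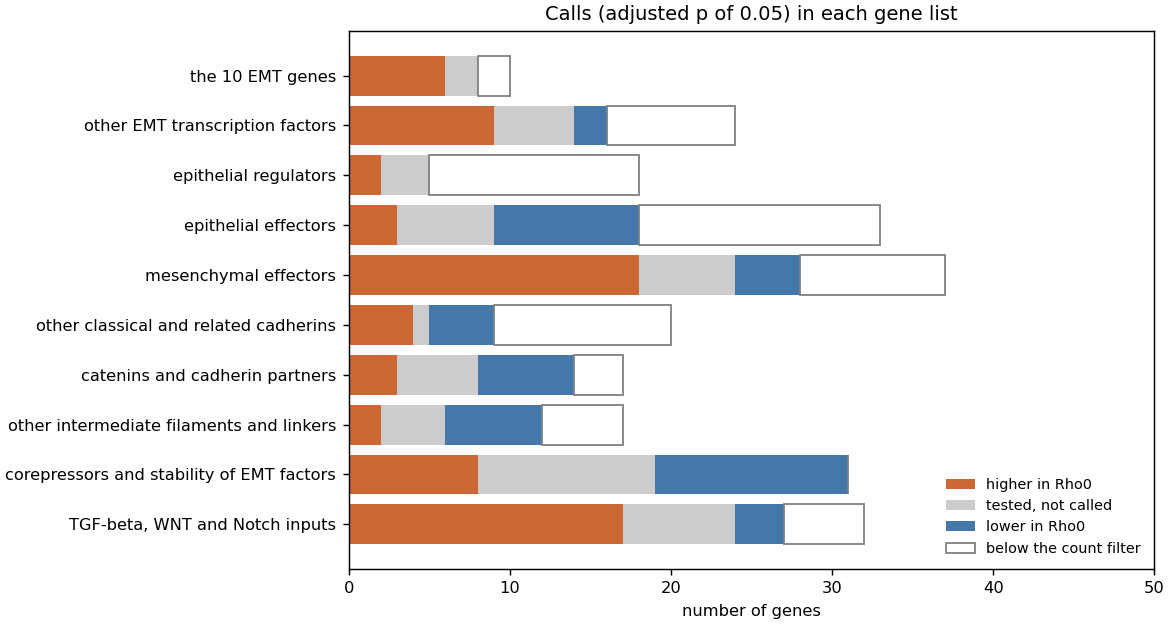
Number of genes in each list that were higher in Rho0, lower in Rho0, tested without a call, or below the count filter (edgeR adjusted p of 0.05, TMM scaling). The 10 EMT genes have 6 higher and 0 lower, and epithelial effectors have 3 higher and 9 lower; over all genes tested 29.0% were higher and 25.4% lower.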

How the data were processed

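RNA-seq of 8 cultures of human Ea.hy926, 4 parental and 4 Rho0, was analysed. Libraries enriched for polyadenylated RNA were made with a strand-specific kit, per the labels' protocols. The authors deposited a table of estimated counts per Ensembl gene and a table of log2 values for 12885 genes. Named without versions, per the submitters' processing notes, are GRCh38, kallisto, limma and edgeR. The roles of these tools, the annotation release and the scaling behind the deposited log2 values are not given.

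Symbols and coordinates came from a gene name table and GENCODE 29 (GRCh38), which named 34284 of 38010 IDs and all 269 genes of the lists. Estimated counts were rounded for edgeR 4.0.16 under R 4.3.3. TMM scaling, filterByExpr (minimum count 10) and a quasi-likelihood fit of the line were used, and Benjamini-Hochberg adjustment over 15184 genes gave calls at 0.05. SE is the log2 fold change divided by the square root of F. The fit was also run on simulated counts in which few genes changed, unlike these data, which checks the code and not the calls made here. The BCV was 13.7%, and 1 count was worth 0.0225 to 0.0753 CPM. Levels per length used the longest GENCODE 29 protein-coding transcript. Alternatives in scaling were library size alone, size factors of DESeq2, and totals that omit mitochondrial transcripts. Alternatives in filter were none and at least 50 counts in 4 libraries. The test was also exchanged for DESeq2 1.42.0 (Wald) or for limma-trend (limma 3.58.1) on the log2 table, a replicate block was tried, and each library was omitted once. Chosen after seeing the data, a further alternative removed from each library a spline term (5 degrees of freedom each) in length and GC, which 93.7% of the tested genes had.

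The members and lists were chosen with earlier results of these data known. Named genes were the 10 members, list genes among the 4 largest changes called with at least 5 CPM in the higher line, and the 2 nearest profiles per member; some of these genes are not reported here. No pair of libraries agreed within sampling noise (lowest chi-square per degree of freedom 4.22). Sequences are from RefSeq (GRCh38.p14). Figures were made in Python 3.11.15 with matplotlib 3.10.9.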

Additional observations from a re-analysis of the deposited data

Results flagged for a closer look

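Dixon's test for a single value far from the others was made in 19 groups of 4 libraries, each holding a gene with counts or the ratio of CDH2 to CDH1 in 1 line, and 2 groups passed its 95% limit, where chance gives about 1 in 20. CDH1 in Rho0 replicate 4 was at 1.15 CPM, above the other Rho0 libraries at 0.813 to 0.857 CPM, and the CDH1 fold change was not called with or without that library. EPCAM in Rho0 replicate 3 was at 0.728 CPM, below the others at 1.01 to 1.05 CPM, and its fold change was called with and without that library (log2 fold change 1.22 without it, edgeR adjusted p = 0.0026). Both genes had few counts in libraries of unequal depth, and Dixon's test does not take counting error into account.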

How the results depend on the processing

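Among 134 refits of the 8 genes, 129 kept their direction and their side of the threshold, 4 gained a call, 1 lost it and none reversed. With library size alone 8572 genes were called higher and 1540 lower and CDH1 and TWIST2 gained a call, while totals that omit mitochondrial transcripts gave 4251 and 3954. Over the settings 5 to 8 of the 10 genes were called higher and 0 lower. Leaving out each library gave 5 to 7 members higher and 0 lower, 3761 to 4557 genes higher and 3389 to 4362 lower, and a cadherin balance difference of 1.05 to 1.22. Of 442 list counts refitted, 28 moved by over 1.5 times, 9 of them with library size alone. The filter of 50 counts gave no value for CDH1 and EPCAM. Same-numbered libraries were not treated as paired, as the labels do not say that they share a batch. Their deviations correlated at -0.135, 0.0366, 0.00185 and 0.155, and those of differently numbered libraries at -0.247 to 0.195. With a replicate block 6 members were higher and 0 lower, 4215 genes were higher and 3802 lower, and no call of a member changed. With few counts, depth limits CDH1, EPCAM and SNAI2.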
